A study of Mus musculus with 3 samples.

Results

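Small nucleolar RNA host genes are transcribed as spliced RNAs whose introns carry small nucleolar RNAs (snoRNAs). 6 noncoding members of this class, *Gas5*, *Snhg1*, *Snhg3*, *Snhg6*, *Snhg8* and *Snhg12*, were taken by gene symbol from the 23953 genes listed in each of 2 expression tables, and all 6 were found. The values are those of the host transcripts and not of the small RNAs inside them. The tables hold RNA-seq levels, as FPKM, which scales fragments by transcript length and by the mapped library size, of 3 libraries of E14 mouse embryonic stem cells (ESCs), 1 library per condition. The study asked how expression depends on the *Oct4* distal enhancer (DE), a regulatory element upstream of *Pou5f1*, the gene for the pluripotency factor Oct4.

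The cells were grown in serum with LIF. Tam cells carried an *Oct4* DE flanked by loxP sites, a tamoxifen-inducible Cre (CreERT2) and a doxycycline-inducible *Oct4* transgene, and received 4-OH tamoxifen, which activates Cre, for 48 h. DoxTam cells were of the same design and received 4-OH tamoxifen together with doxycycline, which switches on the transgene, for 48 h. The paper gives *Oct4* DE −/− cells, with both alleles deleted, as the source of its RNA-seq under both treatments. The library labels do not name a genotype. The third library was WT, and the labels and methods do not say whether it came from parental E14 cells or from untreated cells with the loxP sites. rtTA, the transgene and Cre were brought in by separate lentiviral vectors and the lines were expanded from clones, so clone, treatment and genotype cannot be told apart. With 1 library per condition there was no replicate spread, and every difference below is one between libraries, given without a test.

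The introns of a snoRNA host gene are released by splicing and trimmed to snoRNAs, which guide the methylation and pseudouridylation of ribosomal RNA in the nucleolus. The spliced exons of many noncoding hosts are then removed by nonsense-mediated decay, a surveillance pathway coupled to translation. Many hosts start with a run of pyrimidines like the 5′ terminal oligopyrimidine (5′TOP) tract of ribosomal protein mRNAs, whose translation follows nutrient signalling through mTORC1. *Gas5*, growth arrest-specific 5, is the best known of them: its RNA accumulates when growth stops and can bind the glucocorticoid receptor.

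The start of each gene is shown first, because the 5′ end is the part of a host RNA that these genes are known to share. RefSeq promoter sequences (build GRCm38.p6) were present for 5 of the 6 members, and those used matched mm9, the build of the tables, exactly once, with the start at the edge of the locus in the tables. *Gas5* has a second RefSeq promoter, with its start farther upstream than the locus in the tables, which was set aside. The sequences run 5′ to 3′ on the gene's strand, from 60 bases before the start to 50 bases from it. Capitals mark TATA and the run of C and T at or near the start. In *Snhg1* and *Snhg3* the marked run begins only after the start, behind the bases ctca and ga.
Gas5, chr1:162965237-162965346 (+): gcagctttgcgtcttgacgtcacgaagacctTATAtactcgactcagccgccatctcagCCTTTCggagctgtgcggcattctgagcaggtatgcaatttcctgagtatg
Snhg1, chr19:8797917-8798026 (+): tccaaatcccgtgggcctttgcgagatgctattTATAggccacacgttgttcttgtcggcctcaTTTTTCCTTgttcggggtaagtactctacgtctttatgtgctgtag
Snhg3, chr4:131909552-131909661 (-): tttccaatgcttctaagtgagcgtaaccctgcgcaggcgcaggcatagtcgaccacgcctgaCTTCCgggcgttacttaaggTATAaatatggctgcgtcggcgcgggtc
Snhg8, chr3:123211205-123211314 (-): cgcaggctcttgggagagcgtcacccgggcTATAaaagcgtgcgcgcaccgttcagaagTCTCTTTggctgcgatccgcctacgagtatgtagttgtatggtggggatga
Snhg12, chr4:131864533-131864642 (+): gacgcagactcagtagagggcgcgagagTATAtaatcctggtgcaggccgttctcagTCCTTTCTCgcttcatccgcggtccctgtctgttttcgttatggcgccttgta

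These 5 genes shared a pyrimidine run at or near the start, which is common among all promoters, and most of them shared a TATA word. The word TATA, which reads the same on both strands, lay 45 to 19 bases before the start in 4 of 5 (*Gas5*, *Snhg1*, *Snhg8* and *Snhg12*) and in 6.43% of the 32851 RefSeq promoters. *Snhg3* had no TATA in that window, and the only one in the bases shown lay after its start. A run of 5 or more C and T on the gene's strand was present in 5 of 5 and in 38.0% of all promoters. A run was counted if any part of it lay from 5 bases before the start to 10 after it. Both together were found in 4 of 5 members and in 2.58% of promoters. The second *Gas5* promoter, set aside for the members but counted among all promoters, held neither. Of 15 other noncoding hosts with a RefSeq promoter, 3 held both (*1110038B12Rik*, *Snhg5* and *Snhg7*), as did 2 of 26 protein-coding hosts (*Rpl12* and *Rpl4*). The run alone was present in 9 of these 15 and in 13 of these 26. It was also present in 4 of 9 5′TOP mRNAs and in 10 of 15 genes for factors that package snoRNAs. The run was thus not particular to host genes or to 5′TOP mRNAs. CACGTG, searched on both strands, was in the 300 bases around the start of 0 of 5 members and in 7.15% of promoters. These words were chosen after the sequences had been seen, a match is a description of letters, and the 4 members with both patterns include *Gas5* and *Snhg1*, which were higher in DoxTam, as well as *Snhg8* and *Snhg12*, which were not past the fold used here.

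The depth behind the values was about 12500000 fragments for WT, 6430000 for Tam and 7040000 for DoxTam, estimated from the smallest steps in the FPKM values. 1 row, *Mir6236*, took 43.1% of the summed FPKM in WT, 35.3% in Tam and 27.4% in DoxTam. All 8 stem cell markers were at 98.96 FPKM or more in every library. Of 6 fibroblast markers 1, *Thy1*, reached 1 FPKM in each library, and the summed level of 6 trophectoderm markers was 5.16 FPKM in WT, 10.5 in Tam and 7.39 in DoxTam. Most of the DoxTam sum was *Eomes* (5.43 FPKM), while *Cdx2* stood at 0.639 FPKM in WT, 2.82 in Tam and 0.128 in DoxTam. The 6 neural and mesoderm markers summed to 2.76 FPKM in WT, 4.83 in Tam and 2.99 in DoxTam. Of these, *T* was at 0.309 FPKM in WT, 1.92 in Tam and 0.511 in DoxTam. The rest of that list stayed under 1 FPKM in every library and went both ways between WT and Tam. The part of depth, of *Mir6236* and of these markers in the host gene values was not tested. *Pou5f1* was at 664 FPKM in the library labelled WT, 529 in Tam and 458 in DoxTam. The lowest level thus stood in the library whose label names the transgene, so that the labels are used below as names of libraries. Lines with both DE alleles deleted, the genotype the paper gives for its RNA-seq, were also read there by quantitative PCR. The paper reported nearly no *Oct4* in them given tamoxifen alone, and near wild-type levels with doxycycline. The *Pou5f1* values here do not show that pattern, and the reason was not tested.

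*Snhg1* and *Gas5* had the highest levels of the 6 host genes in every library, and *Snhg8* the lowest. *Gas5* (chr1:162965297-162968668), which holds 9 annotated snoRNA genes, was at 62.7 FPKM in WT, 85.4 in Tam and 101 in DoxTam. *Snhg1* (chr19:8797977-8800816), with 8 snoRNA genes, was at 73.3 FPKM in WT, 99.8 in Tam and 131 in DoxTam. *Snhg3* (chr4:131907848-131909601), host of *Snora73a* and *Snora73b*, was at 28.3 FPKM in WT, 38.8 in Tam and 60.6 in DoxTam. These 3 genes therefore ranked the libraries alike, with WT lowest and DoxTam highest.

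The other 3 host genes differed less between the libraries. *Snhg6* (chr1:9932106-9934199), a host with 1 annotated snoRNA gene, was at 43.8 FPKM in WT, 47.5 in Tam and 46.1 in DoxTam. *Snhg8* (chr3:123210470-123211254), likewise with 1, was at 24.8 FPKM in WT, 25.997 in Tam and 29.8 in DoxTam. *Snhg12* (chr4:131864593-131866939), with 4, was at 43.4 FPKM in WT, 53.3 in Tam and 48.0 in DoxTam. WT was the lowest library for all 6 genes, and the highest was DoxTam for *Gas5*, *Snhg1*, *Snhg3* and *Snhg8* and Tam for *Snhg6* and *Snhg12*. In such bulk libraries a change in the number of cells that express a gene and a change in its RNA per cell cannot be told apart.

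**Figure D1:**
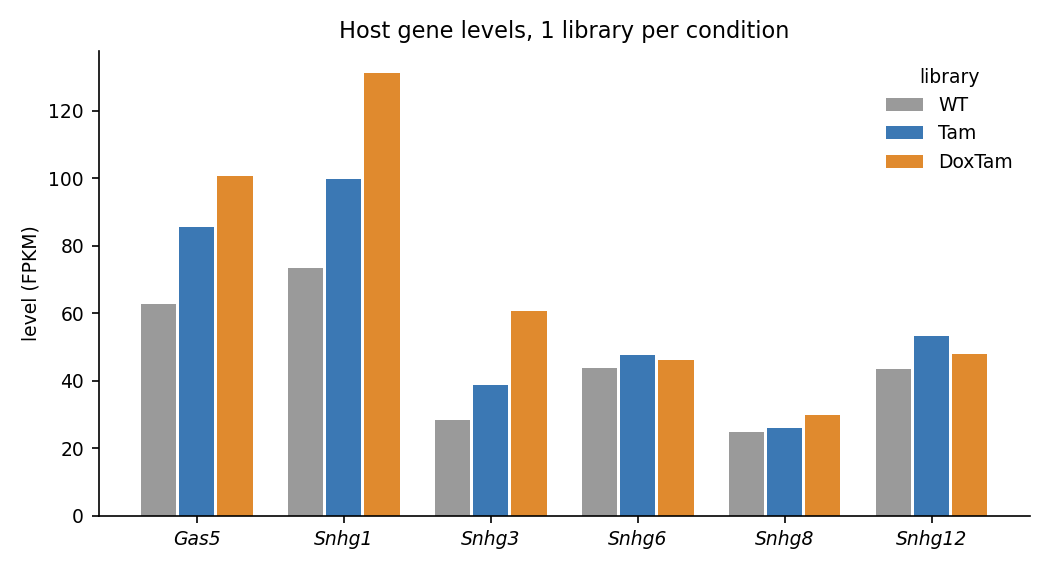
Level of each host gene (bars, FPKM, axis from 0) in the WT, Tam and DoxTam libraries, 1 library per condition and so without error bars. From WT to DoxTam, *Snhg1* gained the most FPKM (73.3 to 131), *Snhg3* had the largest ratio (28.3 to 60.6 FPKM) and *Snhg6* was nearly level (43.8 to 46.1 FPKM).

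All 6 were well expressed genes. Their levels stood between the percentiles 73.3 and 91.6 of the genes at 1 FPKM or more in WT, 75.3 and 94.6 in Tam, and 77.4 and 95.9 in DoxTam. At the estimated depth they correspond to 309 to 913 fragments per kilobase of transcript in WT, 167 to 642 in Tam and 210 to 923 in DoxTam. The counting error of 1 kilobase was then 3.31% to 5.69% in WT, 3.95% to 7.73% in Tam and 3.29% to 6.91% in DoxTam, and it covers counting error only. The 4.70% by which *Snhg8* was above WT in Tam is smaller than the counting error of either library, and the 5.40% by which *Snhg6* was above WT in DoxTam is smaller than that of DoxTam (5.55%).

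The order of the levels changed at 1 place in Tam and more in DoxTam. In WT it ran *Snhg1*, *Gas5*, *Snhg6*, *Snhg12*, *Snhg3*, *Snhg8*. *Snhg6* and *Snhg12* were 43.8 and 43.4 FPKM in WT, closer than their counting errors of 4.28% and 4.30%, and they stood in the opposite order in Tam and DoxTam. *Snhg3* moved from the fifth place in WT and Tam to the third in DoxTam. Together the 6 genes summed to 276 FPKM in WT, 351 in Tam and 416 in DoxTam. *Gas5*, *Snhg1* and *Snhg3*, grouped after their values were seen, made up 164, 224 and 292 FPKM of these sums, or 59.5%, 63.8% and 70.2%, while the other 3 gave 112, 127 and 124 FPKM.

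The comparison of Tam with WT asks what differs in the library labelled for 4-OH tamoxifen alone. Folds are given as log2 of the ratio of FPKM + 1, for genes that reached 1 FPKM in either library, and a gene is called higher or lower past 1.5-fold. None of the 6 host genes was called in Tam (0 of 6), where 6.98% of 12705 genes were called higher and 3.59% lower. Of the genes at 20 to 100 FPKM in WT, a band that holds all 6 members, 3.06% were called higher. All 6 log2 folds were above 0, as were those of 52.7% of all genes and of 42% of the genes in that band. *Snhg3*, *Snhg1* and *Gas5* had nearly the same log2 fold, 0.44 each, and *Snhg12* 0.29. *Snhg6* and *Snhg8* were near WT, with log2 folds of 0.12 and 0.064. The median over the 6 was 0.36 on the log2 scale, beside 0.021 over all genes.

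The comparison of DoxTam with WT asks what differs in the library labelled for 4-OH tamoxifen with doxycycline, where *Pou5f1* was not above WT or Tam. 3 of the 6 host genes were called higher and none lower, where 4.12% of 12384 genes were called higher and 5.78% lower. Among genes at 20 to 100 FPKM in WT the share called higher was 3.09%. All 6 log2 folds were above 0, as were those of 49.7% of all genes and of 46.8% of that band. *Snhg3* had the largest log2 fold of the 6, 1.07, which is past 2-fold, as for 0.711% of all genes. *Snhg1* followed with a log2 fold of 0.83 and *Gas5* with 0.67. On the linear scale *Snhg3* was 114% above WT, *Snhg1* 78.9% and *Gas5* 60.3%. 65 genes had a higher fold than *Snhg3*, or 0.525% of those measured, and 152 and 318 had a higher one than *Snhg1* and *Gas5*.

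The remaining members did not pass the fold in DoxTam. *Snhg8* had a log2 fold of 0.25, *Snhg12* of 0.14 and *Snhg6* of 0.074, and 22.9% to 41.6% of all genes had a higher fold than these. The median over the 6 was 0.46, beside -0.0028 over all genes. *Snhg12* and *Snhg3* lie 40908 bp apart on chromosome 4, and their log2 folds in DoxTam were 0.14 and 1.07. Both comparisons share the WT library, so their directions are not independent.

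Compared directly, DoxTam was above Tam for *Snhg3* with a log2 fold of 0.63. It was the 1 of 6 members called, where 2.09% of 12628 genes were called higher and 5.73% lower, and 0.828% of the genes at 20 to 100 FPKM in Tam were called higher. *Snhg1* had a log2 fold of 0.39, *Gas5* of 0.23 and *Snhg8* of 0.19. *Snhg6* and *Snhg12* were slightly lower in DoxTam than in Tam, with log2 folds of -0.041 and -0.15, and both turned above 0 (0.17 and 0.063) when the libraries were rescaled to the same total FPKM. The median of the 6 was 0.21, beside -0.020 over all genes.

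GC content moved with these folds. Across genes, which are not independent replicates, the Spearman correlation of the log2 fold with exonic GC content was -0.37 for Tam against WT (11700 genes) and -0.59 for DoxTam against WT (11394 genes). The members with an annotated exon model had a low to moderate exonic GC content, 40.7% for *Snhg1*, 43.6% for *Gas5*, 44.4% for *Snhg3* and 47.5% for *Snhg12*. With the exonic GC trend removed, the log2 fold in DoxTam was 0.89 for *Snhg3*, 0.51 for *Snhg1*, 0.46 for *Gas5* and 0.062 for *Snhg12*, so that 1 of these 4 stayed past 1.5-fold, and 281 of 11394 genes were called higher. With the trend on GC content of the whole gene span removed, which could be done for all 6, *Snhg3* was at 1.18, *Snhg1* at 0.62 and *Gas5* at 0.47. The 6 folds against WT stayed above 0 in Tam and in DoxTam under each alternative in which they had a value.

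**Figure D2:**
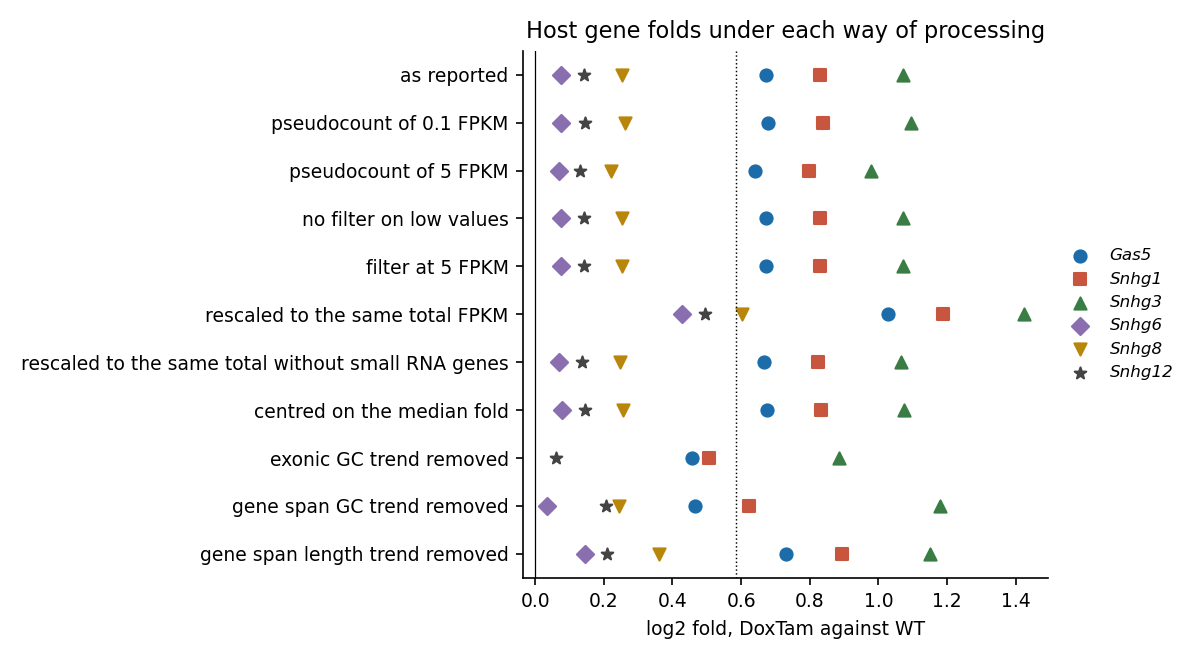
Log2 fold of DoxTam against WT (x axis) of each host gene (symbols) under each way of processing (y axis); the dotted line is 1.5-fold. *Snhg3* lies past the line under every processing drawn, while *Snhg1* (0.51) and *Gas5* (0.46) lie before it with the exonic GC trend removed.

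The genes on both sides of *Snhg1* and *Snhg3* stood below WT in both comparisons, where the host genes stood above it; on rescaling to the same total FPKM, 3 of these 4 neighbours turned above WT in DoxTam, while all 4 stayed below it when small RNA genes, *Mir6236* among them, were left out of the total. *Slc3a2*, which codes for the heavy chain of amino acid transporters, starts 117 bp from *Snhg1* on the opposite strand and was at 91.0 FPKM in WT, 63.7 in Tam and 74.5 in DoxTam. Its log2 folds were -0.51 in Tam and -0.29 in DoxTam, beside 0.44 and 0.83 for *Snhg1*; in DoxTam the sign of *Slc3a2* turned (0.072) on rescaling to the same total FPKM, where *Snhg1* stood at 1.19. *Wdr74*, a ribosome assembly factor on the other side of *Snhg1*, had log2 folds of -0.36 and -0.23, the second of which also turned (0.12) on that rescaling.

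*Rcc1*, the nucleotide exchange factor of the GTPase Ran, lies 6182 bp from *Snhg3* on the same strand and was at 44.9 FPKM in WT, 29.1 in Tam and 31.5 in DoxTam. Its log2 folds were -0.61, called lower, and -0.50, while those of *Snhg3* were 0.44 and 1.07. The call was lost on rescaling to the same total FPKM (-0.47) and with the exonic GC trend removed (-0.53). It stayed with small RNA genes left out of the total (-0.66). Annotated transcripts of *Rcc1* reach into the *Snhg3* locus, so fragments of the shared stretch could be assigned to either gene, and both values are uncertain to that extent. *Phactr4*, on the other side of *Snhg3*, had log2 folds of -0.16 and -0.25, turning to 0.080 in DoxTam on rescaling.

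Near *Gas5*, *Zbtb37* (906 bp, opposite strand) had log2 folds of 0.10 in Tam and 0.19 in DoxTam. *Zbtb37* fell below 0 in both (-0.033 and -0.039) with the exonic GC trend removed. *Trnau1ap*, 738 bp from *Snhg12* on the opposite strand, was at 16.1 FPKM in WT, 16.1 in Tam and 14.5 in DoxTam. *Prss12*, 949 bp from *Snhg8*, was near the limit of measurement at 0.709, 0.743 and 1.37 FPKM, as was *Tcf24* beside *Snhg6* at 0.779, 1.18 and 1.53 FPKM.

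**Figure D3:**
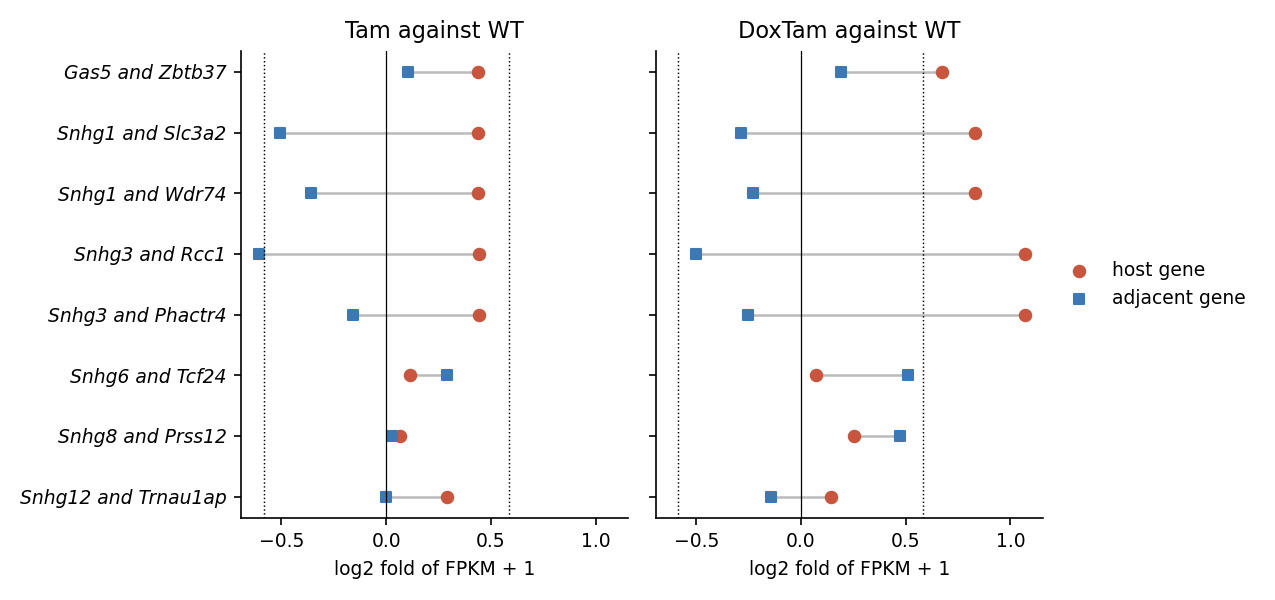
Log2 fold against WT (x axis) in Tam (left) and DoxTam (right) of host genes (circles) and of adjacent genes in the tables that reached 1 FPKM in any library (squares), joined by a line; dotted lines are 1.5-fold in either direction. *Snhg1* and *Snhg3* lie to the right of 0 and *Slc3a2* and *Rcc1* to the left in both panels, *Slc3a2* turning to 0.072 in DoxTam when rescaled to the same total FPKM.

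Other noncoding snoRNA hosts had calls in both comparisons, where 6.98% of all genes were called higher in Tam and 4.12% in DoxTam. Of 11 found in the tables, 10 were measured in Tam and 2 were called higher, *1110038B12Rik* (80.2 to 135 FPKM, log2 fold 0.74) and *Rian* (0.338 to 1.64 FPKM), with a median of 0.26. In DoxTam 1 of 9 was called higher, *Dancr*, from 11.5 to 18.9 FPKM with a log2 fold of 0.67, and the median was 0.21. On rescaling to the same total FPKM, 3 of 10 were higher in Tam and 4 of 9 in DoxTam. Over all genes, 1340 of 12705 and 2660 of 12384 were then higher. Leaving small RNA genes, *Mir6236* among them, out of the total gave 2 of 10 of these hosts higher in Tam and 1 of 9 in DoxTam. *Dancr* has no value with the exonic GC trend removed. No gene of the list was called lower in either.

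The others in that list stayed within 1.5-fold of WT. *1500012F01Rik*, which RefSeq names *Zfas1*, stood at 42.7 FPKM in WT, 51.3 in Tam and 61.7 in DoxTam, with log2 folds of 0.26 and 0.52. *Snhg7* had log2 folds of 0.53 in Tam and 0.32 in DoxTam, *Snhg4* of 0.066 and 0.21, and *Snhg5* of 0.12 and 0.036. *Snhg9* (-0.12 and -0.068) and *Snhg11* (-0.18 and -0.012) were below 0 in both. *Snhg10* was above WT in Tam (0.26) and below in DoxTam (-0.38). *Snhg18* stayed under 1 FPKM in every library, and *Rian* was under it in WT and DoxTam. Between DoxTam and Tam, 2 of 10 were called lower (*Rian* and *Snhg10*) and none higher.

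Protein-coding hosts, most of them ribosomal protein and translation factor genes, had medians near that of all genes. Of 39 measured, 2 were called higher in Tam (all genes 6.98%) and 4 in DoxTam (all genes 4.12%), and none lower. Their medians were 0.041 and 0.084. On rescaling to the same total FPKM, 6 were higher in Tam and 15 in DoxTam, where the median was 0.44 beside 0.31 for all genes. The rescaled counts over all genes were 1340 of 12705 higher in Tam and 2660 of 12384 in DoxTam. Without small RNA genes in the total, 2 protein-coding hosts were higher in Tam and 4 in DoxTam, and the DoxTam median was 0.077. *Rpl30* had the largest log2 fold, 0.88 in Tam and 1.13 in DoxTam. *Rpl32* followed in Tam with 0.64 and stood at 0.67 in DoxTam, beside *Rpl23* at 0.72 and *Rps13* at 0.61. These ribosomal protein genes have many processed pseudogenes with near-identical sequence, so their levels are uncertain.

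The genes of the machinery that packages snoRNAs and removes host RNAs gave few calls in number. Of all genes, 6.98% were called higher and 3.59% lower in Tam, and 4.12% and 5.78% in DoxTam. Few in number here does not mean fewer than among all genes. Of 19 snoRNP core and assembly factors, 1 was called lower in Tam, *Rpap3* with a log2 fold of -0.61. In DoxTam 2 were called lower, *Rpap3* (-0.63) and *Fbl*, the methyltransferase fibrillarin (-0.60), and none was higher in either comparison. On rescaling to the same total FPKM the counts became 1 higher and 0 lower in Tam, and 4 higher and 0 lower in DoxTam. That rescaling called 1340 of 12705 genes higher in Tam and 2660 of 12384 in DoxTam. With small RNA genes, *Mir6236* among them, left out of the total, the snoRNP list stayed at 0 higher and 1 lower in Tam. In DoxTam it stayed at 0 higher and 2 lower. Of 15 nonsense-mediated decay factors none was called in Tam. In DoxTam *Magoh*, a core subunit of the exon junction complex, was higher (0.61) and *Upf3a* lower (-0.64). With the exonic GC trend removed, 13 of the 15 had a value and none of these was called in DoxTam. Whether *Magoh* and *Upf3a* were among the 13 was not recorded. With the trend on GC content of the whole gene span removed, 1 of 15 was called lower in DoxTam and 0 higher. The list medians were -0.16 and -0.050 for snoRNP factors and -0.056 and -0.061 for decay factors.

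Ribosome production and its regulators also gave few calls in number, from lists of 10 to 17 genes, beside the same shares of all genes. None of 15 mRNAs with a 5′TOP, some of which, such as *Eef2* and *Tpt1*, are also snoRNA hosts, was called in either comparison, and their medians were 0.019 in Tam and -0.013 in DoxTam. Of 10 mTORC1 and 5′TOP regulators, *Myc* (-0.79) and *Larp1*, which binds the 5′TOP tract (-0.59), were called lower in Tam and none in DoxTam. *Larp1* was only just past the fold. On rescaling to the same total FPKM, and likewise with the exonic GC trend removed, 1 gene of that list stayed called lower in Tam. Of 17 RNA polymerase I and nucleolar factors, *Nol6* was called lower in Tam (-0.65) and none in DoxTam. The *Nol6* call was lost on rescaling to the same total FPKM and with either GC trend removed. On rescaling to the same total FPKM, the median log2 fold in DoxTam turned from -0.013 to 0.35 for 5′TOP mRNAs, and that of all genes from -0.0028 to 0.31. The DoxTam medians of the snoRNP, decay, mTORC1 and RNA polymerase I lists turned above 0 with them (0.27, 0.28, 0.33 and 0.30), close to the shift of all genes. Without small RNA genes in the total, these medians stayed below 0 (-0.056, -0.068, -0.025 and -0.060), as did that of 5′TOP mRNAs (-0.020). In Tam, 2 mTORC1 regulators and 1 RNA polymerase I factor then stayed called lower.

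The glucocorticoid receptor and its targets were read because *Gas5* RNA can bind that receptor. Of 6 measured, *Dusp1*, a phosphatase of MAP kinases, and *Sgk1*, a kinase, were called higher in Tam with log2 folds of 1.28 and 0.91, and *Fkbp5*, a co-chaperone of the receptor, lower with -0.68. In DoxTam *Dusp1* was higher (0.70) and *Fkbp5* lower (-0.59). On rescaling to the same total FPKM, 2 of the list were higher and 0 lower in each comparison. All genes then gave 1340 of 12705 higher in Tam and 2660 of 12384 in DoxTam. Without small RNA genes in the total, the list gave 2 higher and 1 lower in Tam, and 1 higher and 1 lower in DoxTam. The *Fkbp5* call in DoxTam, lost on rescaling to the same total FPKM, was also lost with the exonic GC trend removed.

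**Figure D4:**
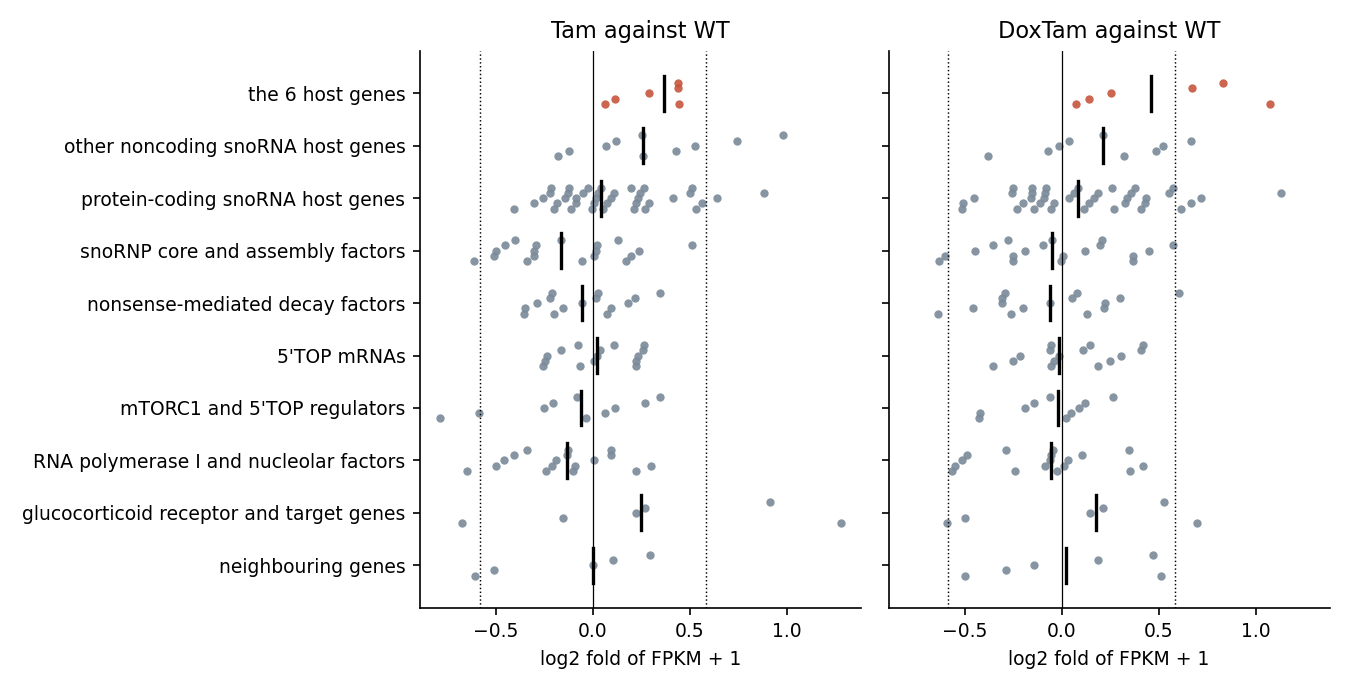
Log2 fold against WT (x axis) of each measured gene (points) of the lists (y axis) in Tam (left) and DoxTam (right); the thick tick is the list median and the dotted lines are 1.5-fold in either direction. The 6 host genes all lie above 0, with medians of 0.36 and 0.46, and the lists of factors straddle 0.

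By the pair of log2 folds in Tam and DoxTam, the 5 genes nearest to the members' medians among 3675 genes with a mean of 20 FPKM or more were *Arl8b*, *Tbl1xr1*, *Tmem11*, *Srsf5* and *Usp9x*, at distances of 0.013 to 0.022 on the log2 scale over the 3 libraries. *Srsf5*, a splicing factor, was the most abundant of them at 168 FPKM in WT, 217 in Tam and 229 in DoxTam.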

How the data were processed

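Total RNA was taken with Trizol and made into libraries with a stranded TruSeq kit. Per the submitters' processing notes the tools were TopHat, Bowtie and Cufflinks 2.0.0 with the mm9 build. The authors deposited FPKM values in 2 tables, Tam beside WT and DoxTam beside WT; WT differed by over 1% between them in 2 genes, so the tables were joined by gene (23926 shared names). Columns with the authors' own fold changes, p-values, q-values and status were not used. 27 names differed between the tables.

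Folds were log2((FPKM + 1)/(FPKM + 1)) among genes at 1 FPKM or more in either library, called at 1.5-fold. No test was made with 1 library per condition. Depth was estimated from the smallest nonzero FPKM times exon length in 1455 genes and is approximate. GC and length trends were removed by lowess (span 0.2). Neighbours and their distances came from the deposited gene loci. Exon models, strands and snoRNA genes came from GENCODE vM1 on NCBIM37, whose chromosomes match mm9, and promoters from RefSeq. Scripts used Python 3.11.15, pandas 2.3.3, numpy 2.4.6, statsmodels 0.14.6 and matplotlib 3.10.9 and were tested on simulated data. The members and lists were chosen with earlier results of these data known. The genes named were all members, up to 4 called genes per list and comparison (the 2 highest and the 2 lowest folds), every measured gene of the other noncoding hosts, the nearest patterns, genes at or beside the member loci, and *Pou5f1*; 2 genes that this rule names are not reported here. Alternatives were other pseudocounts (0.1 and 5 FPKM), filters, scalings, trends and a 2-fold call.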

Additional observations from a re-analysis of the deposited data

Results flagged for a closer look

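The tables also list rows for small RNAs that lie inside the loci of the host genes, outside the values reported above. They are shown because 3 of them were above WT in a treated library, as values from 1 library each and with no test. In the locus of *Snhg12*, *Snora44* was listed at 4689 FPKM in WT, 7654 in Tam and 10796 in DoxTam. *Snora16a*, in the same locus, was listed at 238 FPKM in WT, 515 in Tam and 248 in DoxTam. In the locus of *Snhg8*, *Snora24* was listed at 24.3 FPKM in WT, 11.95 in Tam and 106 in DoxTam. *Snord22*, in the locus of *Snhg1*, went below WT instead, at 6619 FPKM in WT, 5090 in Tam and 3816 in DoxTam, while *Snhg1* went above it. *Snord47*, *Snord87*, *Snora61* and *Snord99* were listed at 0 in every library.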

How the results depend on the processing

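No paired analysis was possible because each condition had 1 library and the labels carry no replicate numbers; leaving out a library was not possible either. The GC and length trends of the gene span were chosen after seeing the data. The cause of the shifts below was not tested. Rescaling to the same total FPKM moved the median log2 fold of all genes to 0.15 in Tam, 0.31 in DoxTam and 0.17 in DoxTam against Tam, and the 6 host genes' median to 0.51, 0.82 and 0.42. It changed the genes called in Tam from 887 higher and 456 lower to 1340 and 265, in DoxTam from 510 and 716 to 2660 and 213 (2873 in all), and in DoxTam against Tam from 264 and 724 to 707 and 476, with 4 host genes higher in DoxTam (*Snhg8* at 0.60 added) and 2 in DoxTam against Tam (*Snhg1* at 0.61 added). With small RNA genes left out of the total, 759 genes were higher and 585 lower in Tam and 490 and 731 in DoxTam, with 3 host genes higher in DoxTam. The median log2 fold of all genes was then -0.024 in Tam, -0.0084 in DoxTam and 0.021 in DoxTam against Tam. Removing the exonic GC trend left 1 host gene higher in DoxTam and 0 in DoxTam against Tam, and 579 genes called in DoxTam (281 higher and 298 lower), but it has values for 4 of 6 host genes and is void for the group. Removing the span GC trend moved the median of the 6 in DoxTam to 0.36, with 2 called. At 2-fold, 1 host gene was called in DoxTam and 0 in DoxTam against Tam, and genes called were 363 in Tam, 217 in DoxTam and 308 in DoxTam against Tam. With a pseudocount of 0.1 FPKM, 2043, 2002 and 1614 genes were called, and with 5 FPKM 464, 438 and 269, the last with 0 host genes. A filter at 5 FPKM gave 812 in Tam and 462 in DoxTam against Tam, where no filter gave 1524. *Snhg3* in DoxTam against Tam fell just inside 1.5-fold with the pseudocount of 5 FPKM (0.58) and with the exonic GC trend removed (0.55). Of single host genes, the others that changed side of the fold used were *Gas5* and *Snhg1* in DoxTam, with a GC trend removed (*Gas5* with either, *Snhg1* with the exonic one) and at 2-fold. At the estimated depth the steps of *Snhg6* and *Snhg8* are near the counting error.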
